A study of Mus musculus with 34 samples.

Results

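The comparison set the 2 primitive streak sections numbered layer 1 against the 9 primitive streak sections numbered layers 3 to 11, in mouse embryos of the strain C57/B6 at embryonic day 7. One layer 1 section came from an Evx1as-/- embryo and 1 from an Evx1as+/- embryo. The other layers comprised 4 Evx1as-/- sections (layers 5, 7, 9 and 11) and 5 Evx1as+/- sections (layers 3, 5, 7, 9 and 11). These 11 sections were taken from 34 samples in the study, which concerns Evx1as, a long noncoding RNA transcribed beside the streak gene Evx1. The pieces were cut by laser from cryosections and sequenced by Geo-seq, a protocol for very small captured tissue pieces. Members were chosen by the region and layer number in the labels, and 3 sections whose title and cell type label name different regions were left out.

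Every embryo in the comparison carried at least 1 mutant Evx1as allele, so no wild-type embryo was among them. The labels do not say in which direction the layers are numbered. They tie no section to an embryo, so sections of a genotype may share an embryo and the p-values over sections below are too small. Layer 1 had 1 section in each genotype, and the spread within a genotype was therefore measured only in layers 3 to 11.

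The primitive streak is the posterior strip of the gastrulating embryo through which epiblast cells pass to form mesoderm and endoderm. Its distal tip holds the organizer and then the node, a small pit whose cells carry motile cilia and whose descendants form the notochord. Node and organizer cells secrete antagonists of BMP, NODAL and WNT signals, and WNT and FGF ligands act along the rest of the streak. The forkhead factor FOXJ1 and the RFX factors switch on the genes of motile cilia, and RFX factors bind a DNA element named the X-box.

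Values were FPKM, fragments scaled to transcript length and to the total of each library, as the authors deposited them. The read depth behind them is unknown, so no counting interval is given. Genes at 1 FPKM or more numbered 10559 in the Evx1as-/- layer 1 library and 10959 in the Evx1as+/- layer 1 library, against 6806 to 9911 in layers 3 to 11, so more genes were detected in both layer 1 libraries than in any of these 9. The summed FPKM was 313260 and 350816 in the 2 layer 1 libraries and lay between 177533 and 376860 in the others. The lowest gene count, 6806, and the lowest sum, 177533, were both those of Evx1as+/- layer 11. A single gene, Yam1, took 7.39% and 14.8% of this sum in layer 1 and 1.76% to 19.4% in layers 3 to 11.

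Evx1as (listed as 5730457N03Rik, chr6:52308389-52314832, mm10) was at 0.0547 FPKM in the Evx1as-/- layer 1 section and at 0 FPKM in the Evx1as+/- one. In the other Evx1as-/- layers it was at 0, 0, 0.159 and 0 FPKM in layers 5, 7, 9 and 11. In the other Evx1as+/- layers it was at 0.0512, 4.57, 1.71, 0.287 and 0.640 FPKM in layers 3, 5, 7, 9 and 11. Layer 1 was therefore near 0 in both genotypes. Evx1 (chr6:52313498-52318378), a homeobox gene of the posterior streak whose position overlaps that of Evx1as, was at 0.278 and 0 FPKM in the Evx1as-/- and Evx1as+/- layer 1 sections, against 0 to 7.05 FPKM (median 3.32) in layers 3 to 11. The sources used here do not say if reads were assigned by strand, so reads of the overlapping stretch cannot be told apart.

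The layer 1 label was permuted within genotype for 3 genes, which allows 30 arrangements and no p below 0.0333. The mean log2 difference was -1.62 for Evx1 (exact permutation p = 0.0667, adjusted over the 3 genes 0.2) and -0.50 for Evx1as (exact permutation p = 0.4, adjusted 0.467), so neither passed the threshold. Without the Evx1as-/- layer 5 section, in which Evx1 was at 0 FPKM, the Evx1 difference was -1.865 with an exact permutation p of 0.0417, not adjusted. Leaving out any other single section of layers 3 to 11 gave an unadjusted exact permutation p of 0.08 to 0.167. T (brachyury, chr17:8434423-8442496), a T-box gene of the streak, was at 72.0 FPKM in the Evx1as-/- layer 1 section and 263 FPKM in the Evx1as+/- one, against 50.8 to 297 FPKM (median 133) in layers 3 to 11. Both layer 1 sections lay inside the range of their own genotype, and the permutation p was 0.467 (exact; adjusted 0.467). The sign of the small T difference was positive at 0.23 as deposited and negative at -0.07 after scaling. Both layer 1 sections therefore carried T at levels found in the other streak sections. It was at 0.572 and 3.62 FPKM in the Evx1as-/- and Evx1as+/- anterior epiblast libraries.

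Across the transcriptome, more genes were called higher than lower in layer 1. Of 9932 genes that averaged 1 FPKM or more across these sections, 218 (2.19%) were higher and 14 (0.141%) lower in layer 1, in both genotypes and at an adjusted p under 0.05. The test was limma on log2(FPKM + 1) with genotype as a term. This scale understates changes of genes at low FPKM. With the called genes included, 1325 had an unadjusted p under 0.05. All 218 higher genes were above every other section of the same genotype in both genotypes, as were 1627 (16.4%) of the genes tested. All 14 lower genes were below every other section of the same genotype, as were 239 (2.41%) of the genes tested. No gene passed the adjusted threshold with opposite signs in the 2 genotypes.

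The sign of the calls depended in part on library scaling. Over all genes tested the median log2 change was 0.30 as deposited, and 0.08 after each library was scaled by its median ratio to the geometric mean of the libraries. Scaled calls numbered 172 higher (1.73%) and 46 lower (0.463%). Higher genes made up 78.9% of the scaled calls and 94% of the deposited ones. Of the deposited calls, 169 of the 218 and 13 of the 14 were also called after scaling. The filter also favoured higher calls, since 122 of the 218 had a mean below 1 FPKM in layers 3 to 11 and entered only through layer 1. Of the 9370 genes that reached 1 FPKM on average in layers 3 to 11, 96 (1.02%) were higher and 14 (0.149%) were lower.

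**Figure D1:**
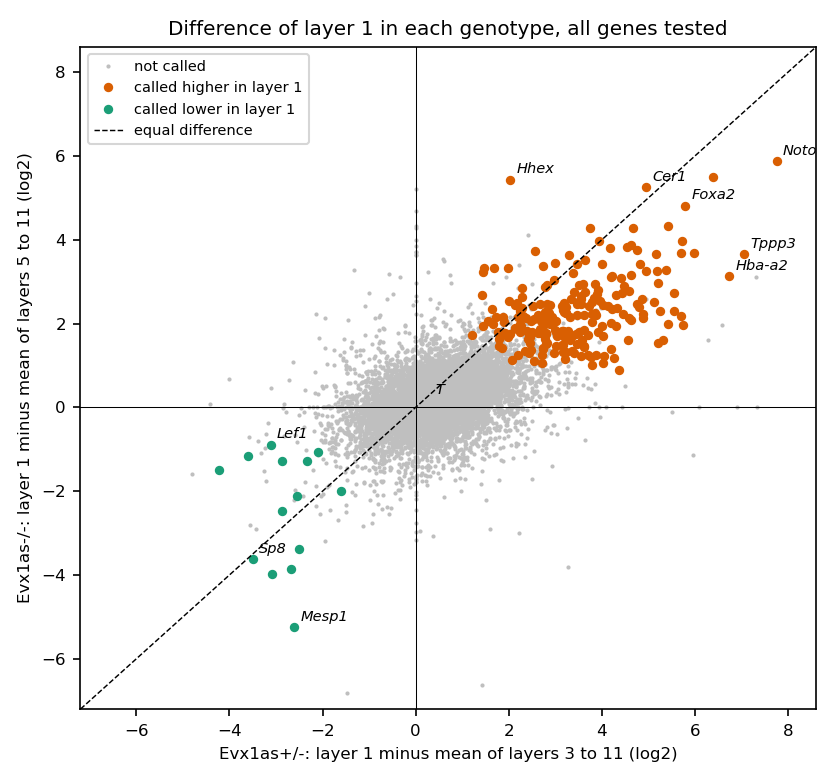
Difference between the layer 1 section and the mean of the other sections on the log2(FPKM + 1) scale, in Evx1as-/- (vertical axis) and Evx1as+/- (horizontal axis), with 1 point for each of the 9932 genes tested. The 218 genes called higher lie mostly right of the dashed line of equal difference, since the difference was larger in Evx1as+/- for 186 of them.

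**Figure D2:**
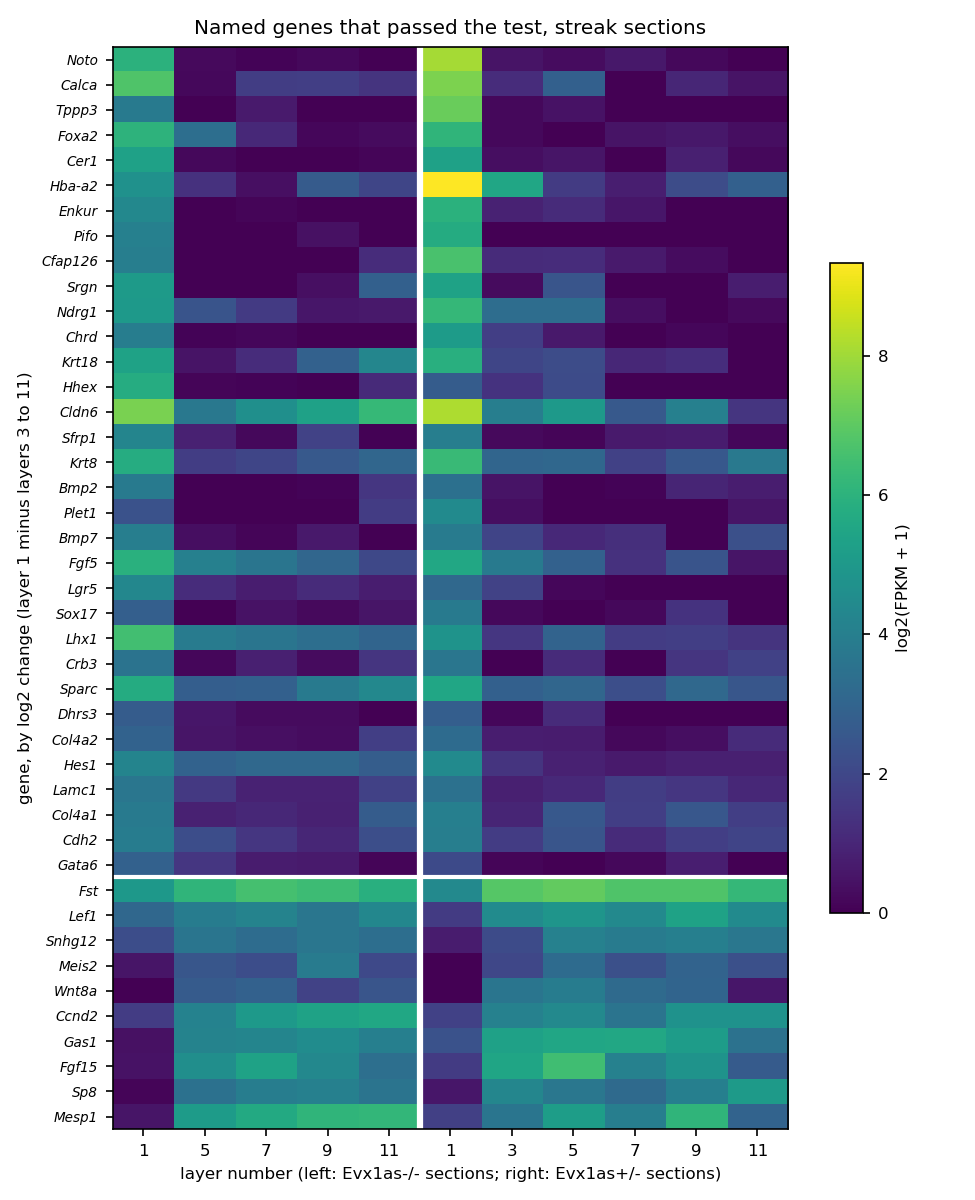
Level of the 43 named genes that passed the test, as log2(FPKM + 1), in each streak section, with Evx1as-/- sections on the left and Evx1as+/- sections on the right, each from layer 1 to layer 11. Genes above the white line were higher in layer 1 and genes below it were lower.

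The calls rested on both layer 1 sections, and their number moved with single libraries. Without the Evx1as+/- layer 1 section, 51 genes were called higher and 5 lower, and 28 of the 43 named genes lost their call. Without the Evx1as-/- layer 1 section, 174 were called higher and 11 lower, and 21 of the 43 lost it. Noto, Calca, Tppp3, Cer1, Enkur, Pifo, Cfap126, Chrd, Sfrp1, Bmp2 and Sp8 were called without either one. Without Evx1as+/- layer 11, 258 genes were called higher and 29 lower. Of the other sections, leaving out any one gave 177 to 212 higher and 8 to 11 lower, with 8 lower calls without Evx1as-/- layer 7 and 9 each without Evx1as-/- layer 11, Evx1as+/- layer 5 or Evx1as+/- layer 7. Among the named genes, Wnt8a and Snhg12 lost their call without any 1 of 10 of the 11 sections, Lef1 and Col4a1 without any 1 of 7, Cldn6 of 6 and Fgf5 of 5.

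Genes of the node had the highest median change of the 32 lists. Of 22 listed genes of the node and its ciliated pit cells, 21 were in the tables and 16 were tested, of which 11 were higher and none lower, with a median log2 change of 3.96 against 0.30 over all genes. Only 5 of these 16 reached 1 FPKM on average in layers 3 to 11, and 3 of those 5 were among the higher. The other tested members entered the test only through layer 1, which favours a high change, so this median and its rank are a description. The list and its members were chosen with earlier results of these data known. The summed FPKM of the list was 240.2 in the Evx1as-/- layer 1 section and 1069 in the Evx1as+/- one, against 6.09 to 24.9 in layers 3 to 11, and no listed gene was at 0 in both layer 1 sections. In bulk pieces, fewer cells of a type and less RNA per cell cannot be told apart.

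Noto (chr6:85423886-85428877), a homeobox factor of the node and notochord, was at 63.2 FPKM in the Evx1as-/- layer 1 section and 269 FPKM in the Evx1as+/- one, against 0 to 0.527 FPKM (median 0.156) in layers 3 to 11. It had the largest change of all named genes, 6.83 ± 0.43 on the log2 scale (SE, limma adjusted p = 1.16e-06). The nearest layers did not approach layer 1: Noto was at 0.402 FPKM in Evx1as+/- layer 3 and at 0.168 and 0.249 FPKM in Evx1as-/- and Evx1as+/- layer 5. Foxa2 (chr2:148042877-148046969), a forkhead factor of the node, floor plate and endoderm, was at 64.7 and 68.7 FPKM in the 2 layer 1 sections, against 0 to 9.33 FPKM (median 0.265) elsewhere. Its change was 5.32 ± 0.64 (SE, limma adjusted p = 0.000565). The highest value outside layer 1, 9.33 FPKM, was in Evx1as-/- layer 5, followed by 1.119 FPKM in Evx1as-/- layer 7.

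**Figure D3:**
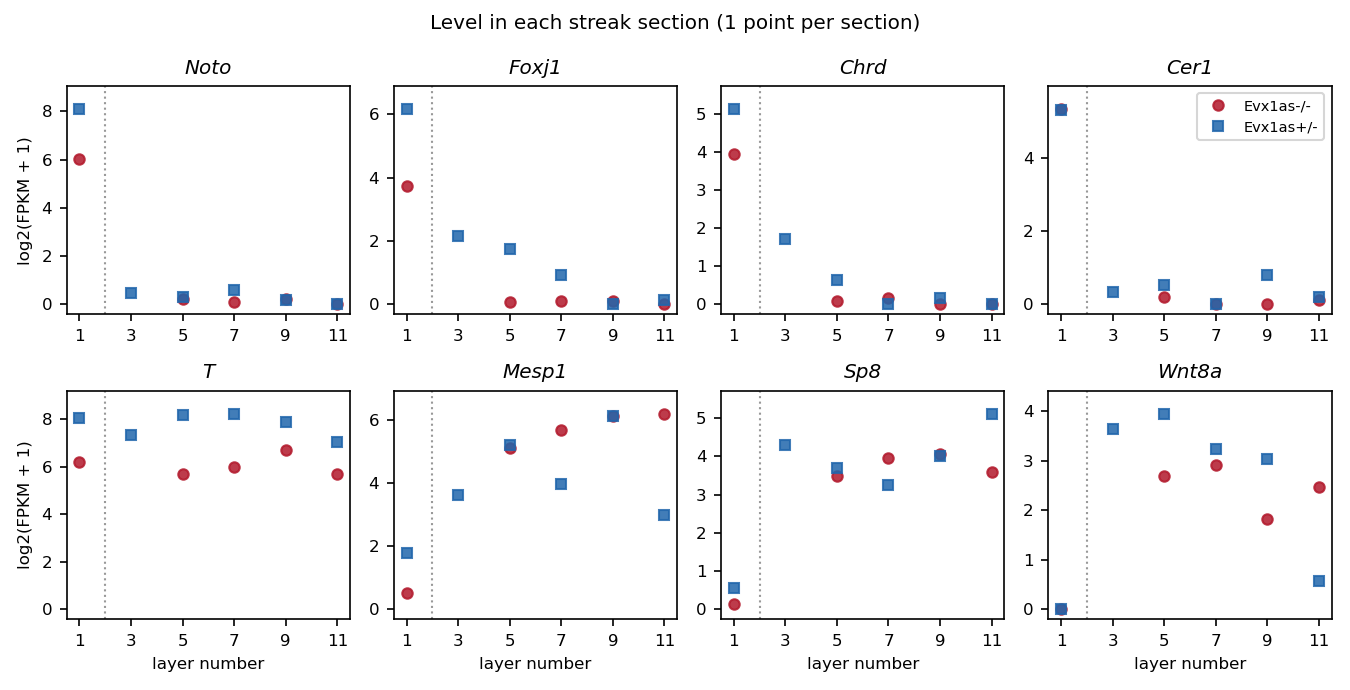
Level of 8 genes on the log2(FPKM + 1) scale against layer number, 1 point per section, with Evx1as-/- as red circles and Evx1as+/- as blue squares. In layer 1 Noto, Foxj1, Chrd and Cer1 stand above all other sections, Mesp1, Sp8 and Wnt8a stand below them, and T lies among them.

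Of the secreted factors of the node, the BMP antagonist Chrd was higher. Chrd (chr16:20733127-20742384), which binds BMP ligands outside the cell, was at 14.4 FPKM in the Evx1as-/- layer 1 section and 34.0 FPKM in the Evx1as+/- one, against 0 to 2.30 FPKM (median 0.0754) elsewhere, a change of 4.26 ± 0.47 (SE, limma adjusted p = 0.000246). The highest value outside layer 1 was that of Evx1as+/- layer 3. Nog, the other classical BMP antagonist of the node, was listed at 0 in the Evx1as-/- layer 1 section and was at 26.7 FPKM in the Evx1as+/- one, against 0 to 1.16 FPKM elsewhere (limma adjusted p = 0.152). Shh, the midline ligand made by node and notochord, was likewise listed at 0 in the Evx1as-/- layer 1 section and at 5.81 FPKM in the Evx1as+/- one, was listed at 0 in all 9 other sections, and fell below the filter. Nodal was at 4.74 and 12.8 FPKM in the 2 layer 1 sections, against 0 to 5.52 FPKM (median 3.03), and did not pass (limma adjusted p = 0.391). Dand5, the NODAL antagonist of the cells at the rim of the node, was at 2.19 and 4.90 FPKM, against 0 to 2.14 FPKM, and did not pass (limma adjusted p = 0.219).

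Genes that control motile cilia were higher too. Foxj1, the forkhead switch for motile cilia, was at 12.2 FPKM in the Evx1as-/- layer 1 section and 70.2 FPKM in the Evx1as+/- one, against 0 to 3.45 FPKM (median 0.0895), a change of 4.42 ± 0.55 (SE, limma adjusted p = 0.000684). In Evx1as+/- sections it was at 3.45, 2.35 and 0.910 FPKM in layers 3, 5 and 7, whereas Evx1as-/- layers 5 to 11 stayed at or below 0.0895 FPKM. Rfx3, an RFX factor of ciliated cells, was at 13.5 and 29.7 FPKM in the 2 layer 1 sections, against 1.29 to 5.06 FPKM (median 2.81), a change of 2.55 ± 0.39 (SE, limma adjusted p = 0.00231). Ccno, a cyclin of centriole amplification, was at 7.63 and 57.0 FPKM, against 0 to 4.36 FPKM, and was higher (limma adjusted p = 0.00596).

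Products of the cilium itself followed. Pifo, a ciliary protein of the mouse node, was at 15.9 FPKM in the Evx1as-/- layer 1 section and 52.0 FPKM in the Evx1as+/- one, against 0 to 0.322 FPKM, and was listed at 0 in 8 of the 9 other sections (log2 change 4.87 ± 0.43 SE, limma adjusted p = 3.5e-05). Cfap126, which positions basal bodies and is a Foxj1 target in mouse, was at 14.9 and 99.6 FPKM, against 0 to 1.27 FPKM (log2 change 4.87 ± 0.54 SE, limma adjusted p = 0.000246). Enkur, an adaptor of sperm flagella and motile cilia, was at 19.5 and 61.1 FPKM, against 0 to 1.23 FPKM (log2 change 4.89 ± 0.43 SE, limma adjusted p = 3.5e-05). Tppp3, a microtubule-bundling protein, was at 13.2 and 145 FPKM, against 0 to 0.587 FPKM (log2 change 5.39 ± 0.58 SE, limma adjusted p = 0.000246). In all 4 genes both layer 1 sections lay above all 9 others, and the Evx1as+/- value was the higher of the 2. A lack of overlap within genotype was a condition for naming these genes. All 4 entered the test only through layer 1, so this separation is a description.

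Families of ciliary genes, picked by name prefix after their values had been seen, moved unevenly. None of the radial spoke genes or tektins tested, and 3 of the 8 Cfap genes, reached 1 FPKM on average in layers 3 to 11, so most entered the test only through layer 1 and their counts are a description. Of 4 radial spoke genes tested, 3 were higher, among them Rsph9 at 7.13 and 40.4 FPKM in Evx1as-/- and Evx1as+/- layer 1, against 0 to 2.70 FPKM. All 3 tektins tested were higher, for example Tekt1 at 4.32 and 48.0 FPKM, against 0 to 0.236 FPKM. Among 8 Cfap genes tested 4 were higher, and 1 of 10 intraflagellar transport genes was (Ift22). Ift22 and Cfap36 lost their call after scaling. None of 4 Bbs genes and none of the 3 tested axonemal dynein and dynein assembly genes, of 24 in the tables, passed at the adjusted threshold of limma. The dynein chains were mostly under the filter, since the heavy chain Dnah5 was at 0.104 and 1.75 FPKM and Dnah11 at 0 and 0.468 FPKM in the 2 layer 1 sections.

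**Figure D4:**
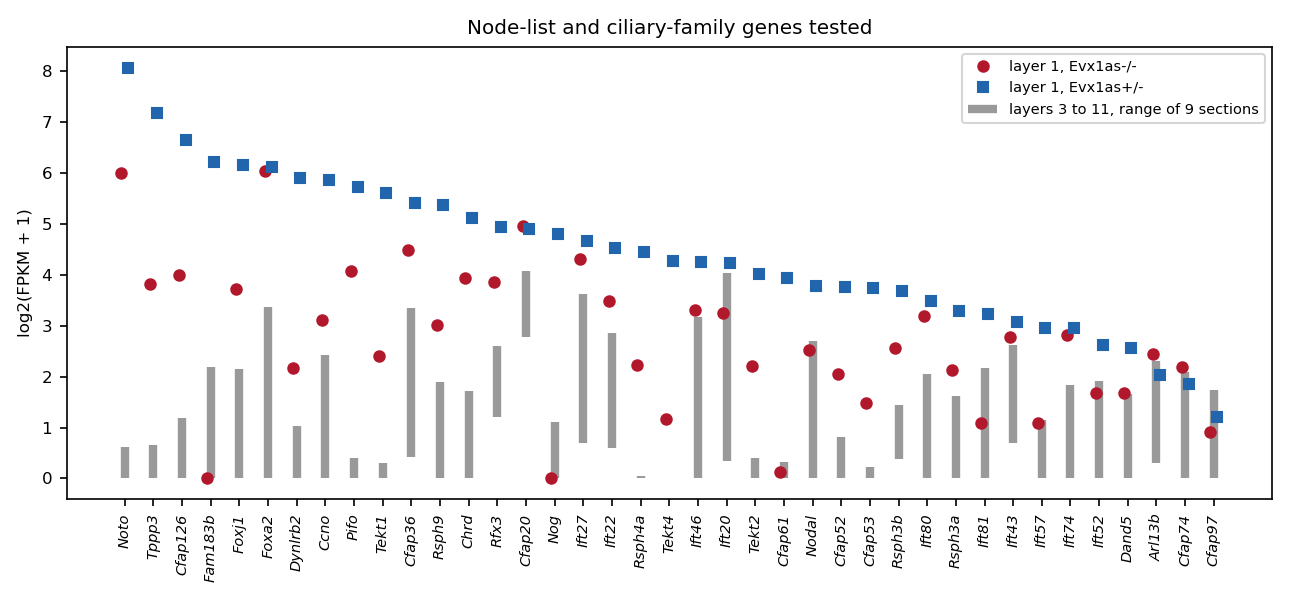
Level of the 39 tested genes of the node list and of the radial spoke, tektin, Cfap and Ift families, as log2(FPKM + 1), in the Evx1as-/- (red circles) and Evx1as+/- (blue squares) layer 1 sections, with grey bars for the range of the 9 other sections. The Evx1as+/- value is the higher of the 2 layer 1 values in 36 of the 39 genes.

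Promoters of all the higher genes, ciliary or not, were read for the X-box because many node-list and ciliary genes were higher. RefSeq promoter windows (GRCm38.p6, 250 bases before to 50 after the gene start) were matched by symbol, over all listed starts of a gene, for 151 of the 218 higher genes and for 6092 of the 9931 symbols tested. Fewer than 80% of either set had a window, so a comparison of the sets is void. The motif searched reads GTNNCC, then NNN, then GNAAC, on both strands, with overlapping matches allowed. It was present in 15 of the 151 windows of the higher genes and in 197 (3.23%) of the 6092 of the symbols tested. Among all 27025 genes with a window of this length, 673 (2.49%) held it. No conclusion is drawn from these counts. Windows of other genes described above, such as Pifo and Ift22, hold matches too and are not shown. The windows of Ccno and Enkur are given as examples, each on the strand of the gene with the match in capitals. The Ccno match reads as the motif on the opposite strand, and the Enkur match on the strand shown. The windows shown lie at chr13:112987552-112987851 (plus strand) for Ccno and chr2:21205316-21205615 (minus strand) for Enkur.
Ccno: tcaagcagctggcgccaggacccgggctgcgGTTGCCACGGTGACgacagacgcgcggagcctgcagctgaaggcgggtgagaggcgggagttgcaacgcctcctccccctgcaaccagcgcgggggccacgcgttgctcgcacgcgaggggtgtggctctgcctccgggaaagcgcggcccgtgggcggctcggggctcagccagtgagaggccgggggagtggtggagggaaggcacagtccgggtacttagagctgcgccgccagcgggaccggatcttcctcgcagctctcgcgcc
Enkur: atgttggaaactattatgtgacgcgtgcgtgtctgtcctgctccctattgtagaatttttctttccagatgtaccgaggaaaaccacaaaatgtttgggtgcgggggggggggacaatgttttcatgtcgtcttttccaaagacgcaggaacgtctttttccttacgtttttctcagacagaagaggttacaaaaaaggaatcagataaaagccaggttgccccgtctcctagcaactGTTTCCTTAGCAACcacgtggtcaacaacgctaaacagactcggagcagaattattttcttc
The match starts 219 bases before the gene start in Ccno and 12 bases before it in Enkur. A match describes these letters and says nothing of binding by a factor.

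Of 14 tested genes of the anterior streak and organizer, 6 were higher and 1 lower, with a median log2 change of 2.09, and Foxa2 and Chrd among them are also in the node list. Only 8 of the 14 reached 1 FPKM on average in layers 3 to 11, of which 2 were higher and 1 lower. Cer1 (chr4:82881751-82885148), a secreted antagonist of NODAL, BMP and WNT, was at 39.6 FPKM in the Evx1as-/- layer 1 section and 39.3 FPKM in the Evx1as+/- one, against 0 to 0.767 FPKM (median 0.153). Its change of 5.10 ± 0.37 (SE, limma adjusted p = 4.93e-06) was nearly equal in the 2 genotypes, at 5.26 in Evx1as-/- and 4.95 in Evx1as+/-. Outside the streak Cer1 was not limited to layer 1, since it reached 131 FPKM in 1 mesoderm section. Lhx1, a LIM homeobox factor of the organizer, was at 90.2 and 26.97 FPKM in the 2 layer 1 sections, against 1.63 to 13.6 FPKM (log2 change 3.01 ± 0.43 SE, limma adjusted p = 0.00163).

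The organizer-list genes Hhex, Gsc and Otx2, and the streak gene Mixl1, were far higher in the Evx1as-/- layer 1 section than in the Evx1as+/- one. The list had no common direction. Chrd, Nog, Shh and Sox17 were higher in the Evx1as+/- layer 1 section, as most ciliary genes were, and Foxa2 and Cer1 were at like levels. Hhex, a homeobox factor of anterior endoderm, was at 53.7 FPKM in the Evx1as-/- layer 1 section and 5.63 FPKM in the Evx1as+/- one, against 0 to 3.39 FPKM (median 0.0781), and was higher (log2 change 3.70 ± 0.72 SE, limma adjusted p = 0.0119). Gsc, the organizer homeobox gene goosecoid, was at 21.2 and 0.712 FPKM, against 0 to 3.18 FPKM, and did not pass (limma adjusted p = 0.122). Otx2, which marks anterior epiblast and endoderm, was at 45.7 and 3.38 FPKM, against 0.357 to 18.5 FPKM, and did not pass (limma adjusted p = 0.51). Mixl1, a homeobox gene of the streak, was at 209 and 3.56 FPKM, against 42.7 to 280 FPKM, so that the Evx1as+/- layer 1 section alone lay below all others (limma adjusted p = 0.201). The test of the genotype difference in the layer 1 change did not pass for any of these 4 genes.

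Endoderm genes were also higher. Of 14 tested genes of definitive endoderm 9 were higher and none lower, with a median log2 change of 3.05, and this list shares Foxa2, Cer1, Hhex, Gsc and Sox17 with the organizer list. Only 7 of the 14 reached 1 FPKM on average in layers 3 to 11, of which 4 were higher. Sox17, an early endoderm factor, was at 6.03 and 13.4 FPKM in Evx1as-/- and Evx1as+/- layer 1, against 0 to 1.55 FPKM (log2 change 3.02 ± 0.46 SE, limma adjusted p = 0.00212). Foxa1, a partner of Foxa2 in endoderm, was at 4.92 and 13.97 FPKM, against 0 to 0.737 FPKM (log2 change 3.09 ± 0.44 SE, limma adjusted p = 0.00163). Trh was at 331 and 87.3 FPKM, against 0.837 to 75.7 FPKM, above all 9 other sections but not called (limma adjusted p = 0.205).

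Markers of visceral endoderm, the cell layer that covers the epiblast, were measured beside them because this layer also makes Foxa2, Sox17 and Cer1. The summed FPKM of the 24 listed genes was 768 in the Evx1as-/- layer 1 section and 523.5 in the Evx1as+/- one, against 75.2 to 2299 (median 158.5) in layers 3 to 11, so layer 1 was above the median and within the range. Of 18 tested genes 2 were higher, Gata6 and Sox17, and none lower, and none of the 14 that reached 1 FPKM on average in layers 3 to 11 was called by limma. Fgb and Cdhr2 were at 0 in both layer 1 sections, the lipid carrier Ttr was at 0.903 and 0.449 FPKM, against 0 to 45.8 FPKM, and Afp was at 4.59 and 1.76 FPKM, against 0 to 6.67 FPKM. Apoe, the most abundant listed gene, was at 356 and 340 FPKM, against 19.7 to 936 FPKM (median 125.4). Spink1, a protease inhibitor, was at 277 and 85.9 FPKM, against 0 to 322 FPKM (median 19.8), and Apoa1 was at 22.8 and 15.3 FPKM, against 0.145 to 419.5 FPKM (median 7.83). These 3 genes and Cited1, at 23.2 and 17.5 FPKM against 1.85 to 101 FPKM (median 2.69), were above the median and within the range of layers 3 to 11. In the list of anterior visceral endoderm, which shares 9 of its 13 genes with the organizer list, 6 of 9 tested were higher, and 2 of the 4 that reached 1 FPKM on average in layers 3 to 11. The part of visceral endoderm in the result was not tested. Markers of extraembryonic ectoderm and trophoblast summed to 114.6 and 97.5 FPKM in the Evx1as-/- and Evx1as+/- layer 1 sections, against 18.1 to 90.5 FPKM in layers 3 to 11, above every other section. Of 9 tested 1 was higher, Plet1, which entered the test only through layer 1. Of the 6 that reached 1 FPKM on average in layers 3 to 11, 0 were higher. The trophoblast factors Elf5 and Ascl2 were at 0 in both layer 1 sections. Their part in the result was not tested either.

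Epithelial and matrix genes were partly higher, at like levels in the 2 layer 1 sections. Of 13 tested epithelial junction genes 5 were higher and none lower (median log2 change 1.70), and 3 of the 9 that reached 1 FPKM on average in layers 3 to 11 were. Cldn6, a tight junction claudin, was at 175 and 290 FPKM in Evx1as-/- and Evx1as+/- layer 1, against 1.71 to 74.4 FPKM (limma adjusted p = 0.0267). Krt8, a keratin of simple epithelia, was at 53.2 and 79.5 FPKM, against 2.27 to 12.7 FPKM (limma adjusted p = 0.00161), and its partner Krt18 was at 40.6 and 58.7 FPKM, against 0 to 18.3 FPKM (limma adjusted p = 0.0149). Crb3, an apical polarity protein, was at 10.7 and 11.6 FPKM, against 0 to 2.46 FPKM (limma adjusted p = 0.00846). Cdh1, the epithelial cadherin, was at 21.3 and 30.8 FPKM, against 9.87 to 21.8 FPKM, and did not pass (limma adjusted p = 0.439). Cdh2, a cadherin of mesoderm and node, was at 13.99 and 14.8 FPKM, against 1.02 to 4.56 FPKM, and was higher (limma adjusted p = 0.0119).

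Of 11 tested genes of basement membrane and matrix, 5 were higher and none lower, and 3 of the 9 that reached 1 FPKM on average in layers 3 to 11 were. Lamc1, a laminin chain, was at 11.5 and 10.2 FPKM in Evx1as-/- and Evx1as+/- layer 1, against 0.744 to 2.45 FPKM (log2 change 2.32 ± 0.39 SE, limma adjusted p = 0.00489). Sparc, a collagen-binding matrix protein, was at 52.3 and 45.5 FPKM, against 3.72 to 19.3 FPKM (limma adjusted p = 0.00624). The collagen IV chain gene Col4a2 was at 6.66 and 8.51 FPKM, against 0.156 to 2.31 FPKM (limma adjusted p = 0.00874), whereas its neighbour Col4a1 had a log2 change of 2.28 as deposited (limma adjusted p = 0.0337) and 2.00 scaled (limma adjusted p = 0.071).

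**Figure D5:**
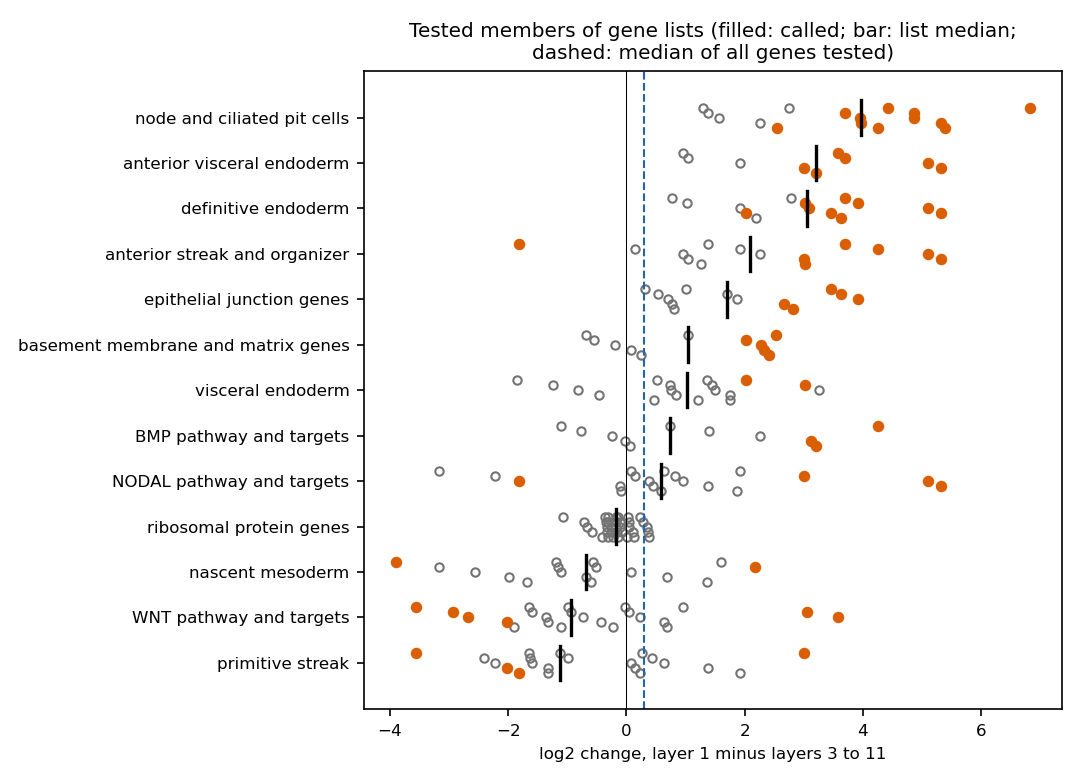
Log2 change (layer 1 minus layers 3 to 11) of each tested member of 13 gene lists, with filled points for genes called, a bar at the list median and a dashed line at the median of all genes tested, 0.30. The node list has the highest median, 3.96, but most of its tested members entered the test only through layer 1. The primitive streak list has a median of -1.125, and several lists share genes.

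The genes lower in layer 1 included Mesp1 and several genes of the streak. Of 17 tested genes of nascent mesoderm 1 was lower (Mesp1) and 1 higher (Cdh2), and the list summed to 96.0 and 122.3 FPKM in Evx1as-/- and Evx1as+/- layer 1, within the 53.9 to 327.4 FPKM of the other layers. Mesp1 (chr7:79792241-79793788), a bHLH factor of early mesoderm, was at 0.427 FPKM in the Evx1as-/- layer 1 section and 2.41 FPKM in the Evx1as+/- one, against 6.91 to 71.0 FPKM (median 35.4), the largest fall among named genes at -3.90 ± 0.71 (SE, limma adjusted p = 0.00811). Sp8 (chr12:118846329-118852578), a zinc finger factor induced by WNT, was at 0.103 and 0.482 FPKM, against 8.45 to 33.4 FPKM (median 14.5), a change of -3.57 ± 0.43 (SE, limma adjusted p = 0.000587). Both layer 1 values lay well below the lowest other section in each gene, but a lack of overlap within genotype was a condition for naming them. Mesp1 was low in the anterior epiblast too, at 0 and 1.42 FPKM in Evx1as-/- and Evx1as+/-, and its log2 difference between layer 1 and anterior epiblast was 0.50 ± 0.96 (SE, limma adjusted p = 0.803).

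WNT genes went in both directions, but both higher members entered the test only through layer 1. Of 23 tested genes of the WNT pathway and its targets, 4 were lower (Sp8, Wnt8a, Lef1 and Ccnd2) and 2 higher as deposited. After scaling, 7 were lower and 2 higher. Of the 21 that reached 1 FPKM on average in layers 3 to 11, 4 were lower and 0 higher as deposited. Wnt8a, a WNT ligand of the early streak, was listed at 0 in both layer 1 sections, against 0.481 to 14.3 FPKM (median 6.498; limma adjusted p = 0.0457). Lef1, which carries the WNT signal to DNA, was at 7.76 and 2.06 FPKM in Evx1as-/- and Evx1as+/- layer 1, against 11.7 to 40.9 FPKM (limma adjusted p = 0.0331). Ccnd2, a cyclin, was at 2.13 and 2.51 FPKM, against 11.2 to 45.8 FPKM (limma adjusted p = 0.00204). Wnt3, the ligand that starts the streak, was at 5.32 and 3.14 FPKM, against 4.58 to 24.1 FPKM, and was lower after scaling (limma adjusted p = 0.0689 as deposited and 0.0108 scaled). The members that rose were Sfrp1, a secreted WNT antagonist, at 18.1 and 15.1 FPKM, against 0.0302 to 2.58 FPKM (limma adjusted p = 0.000944), and Lgr5, an R-spondin receptor, at 19.0 and 7.80 FPKM, against 0 to 2.62 FPKM (limma adjusted p = 0.0037).

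In the primitive streak list of 21 tested genes 3 were lower (Sp8, Lef1 and Fst) and 1 higher (Lhx1), with a median log2 change of -1.125. Fst, an antagonist of activin and made along the streak, was at 30.4 and 20.0 FPKM in Evx1as-/- and Evx1as+/- layer 1, against 58.5 to 135 FPKM (log2 change -1.82 ± 0.36 SE, limma adjusted p = 0.0121). Of the NODAL list of 19 tested genes, 3 were higher (Foxa2, Cer1 and Lhx1) and 1 lower (Fst). Of the 16 that reached 1 FPKM on average in layers 3 to 11, 2 were higher (Foxa2 and Lhx1) and 1 lower. Lefty2, a NODAL antagonist of mesoderm, was at 1.44 and 2.42 FPKM, against 3.63 to 85.7 FPKM, below all other sections, and was lower after scaling (limma adjusted p = 0.0692 as deposited and 0.0429 scaled). Among 11 tested genes of the BMP list 3 were higher, the antagonist Chrd and the ligands Bmp2 and Bmp7. Of the 8 that reached 1 FPKM on average in layers 3 to 11, 1 was higher, Bmp7. Chrd and Bmp2 entered the test only through layer 1. Bmp2 was at 13.2 and 9.87 FPKM, against 0 to 1.77 FPKM (limma adjusted p = 0.00182), and Bmp7 at 14.9 and 13.6 FPKM, against 0 to 3.86 FPKM (limma adjusted p = 0.00474). Bmp4 was at 0.241 and 0 FPKM and stayed under the filter.

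FGF genes were mixed as well. Of 18 tested members of the FGF list, 1 was lower and 1 higher. Fgf15, a ligand of the posterior epiblast and streak, was at 0.374 and 2.05 FPKM in Evx1as-/- and Evx1as+/- layer 1, against 5.39 to 87.2 FPKM (log2 change -3.53 ± 0.73 SE, limma adjusted p = 0.0166). Fgf5, a marker of primed epiblast, was at 60.5 and 47.4 FPKM, against 0.431 to 15.7 FPKM, with a log2 change of 3.08 as deposited (limma adjusted p = 0.0299) and 2.83 scaled (limma adjusted p = 0.0522). Its values in Evx1as-/- layers 5, 7, 9 and 11 were 15.7, 11.4, 7.35 and 3.10 FPKM, and those in Evx1as+/- layers 3, 5, 7, 9 and 11 were 13.2, 6.54, 1.49, 4.37 and 0.431 FPKM. The level thus fell with the layer number in Evx1as-/- sections and, apart from layer 9, in Evx1as+/- ones.

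Genes of the posterior and late streak were mixed, with 1 of 13 tested higher (Bmp7) and 1 lower (Wnt8a). Their sum was 46.0 and 41.8 FPKM in Evx1as-/- and Evx1as+/- layer 1, within the 33.8 to 125.7 FPKM of layers 3 to 11. Of 18 listed Hox genes 15 were listed at 0 in both layer 1 sections, and 2 reached the filter, Hoxb1 and Hoxb2. Hoxb1 was at 0.238 and 0.950 FPKM in Evx1as-/- and Evx1as+/- layer 1, against 0.745 to 39.4 FPKM (median 9.50; limma adjusted p = 0.0512 as deposited and 0.0353 scaled). Cdx1 was at 0.972 and 0.678 FPKM, against 0.835 to 15.1 FPKM, and did not pass (limma adjusted p = 0.136). The other named lower genes were Gas1, a surface protein of hedgehog signalling, at 0.323 and 4.08 FPKM, against 10.4 to 47.3 FPKM (limma adjusted p = 0.00224), the homeobox gene Meis2 at 0.456 and 0 FPKM, against 3.00 to 13.7 FPKM (limma adjusted p = 0.0172), and the noncoding RNA Snhg12 at 3.66 and 0.629 FPKM, against 3.36 to 16.0 FPKM (limma adjusted p = 0.0439). Snhg12 in the Evx1as-/- layer 1 section thus lay above Evx1as+/- layer 3, while Gas1 and Meis2 in both layer 1 sections lay below all 9 others.

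Calca, Srgn and Ndrg1 belong to none of these groups. Calca, which encodes calcitonin and CGRP, was at 108 and 180 FPKM in Evx1as-/- and Evx1as+/- layer 1, against 0 to 6.35 FPKM (median 1.27; log2 change 5.96 ± 0.62 SE, limma adjusted p = 0.000162). Srgn, a secretory proteoglycan, was at 33.2 and 40.1 FPKM, against 0 to 6.34 FPKM (limma adjusted p = 0.00382). Ndrg1, a gene induced by hypoxia, was at 32.5 and 73.3 FPKM, against 0 to 9.19 FPKM (limma adjusted p = 0.0129), and was the only one called of 20 tested hypoxia and glycolysis genes. Its next highest values were 9.12 and 9.19 FPKM in Evx1as+/- layers 3 and 5 and 4.41 FPKM in Evx1as-/- layer 5.

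Adult haemoglobin was high in the Evx1as+/- layer 1 section. Hba-a2 was at 25.3 FPKM in the Evx1as-/- layer 1 section and 644 FPKM in the Evx1as+/- one, against 0.304 to 44.9 FPKM (median 2.87), and was called higher (log2 change 4.97 ± 0.99 SE, limma adjusted p = 0.0136). Reads of Hba-a2 and its near copy Hba-a1 may have been split between them. The list of maternal blood and decidua summed to 137.3 and 3612 FPKM in the 2 layer 1 sections, against 5.90 to 240.2 FPKM, and 1 of its 6 tested genes was called. Its decidual marker Prl8a2 was at 0 and 5.91 FPKM in Evx1as-/- and Evx1as+/- layer 1, against 0 to 2.04 FPKM (limma adjusted p = 0.579), and Cryab was at 3.90 and 4.03 FPKM, against 0 to 1.96 FPKM (limma adjusted p = 0.0559). The stromal and immune markers Lum, Lyz2 and Cd74 were at 0 in both layer 1 sections, as were the embryonic globins Hba-x, Hbb-y and Hbb-bh1. The part of maternal blood in the other results was not tested. Mitochondrial transcripts took 3.21% and 4.79% of the summed FPKM in layer 1, against 2.25% to 5.53%, and no ribosomal protein gene of 35 tested was called by limma.

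The 2 layer 1 sections, 1 of each genotype, differed in the size of their change from the other layers. Over the 218 higher genes, which were chosen for this change, the median difference between layer 1 and the other layers was 2.17 in Evx1as-/- and 3.28 in Evx1as+/-. A term for the difference between the genotypes passed the adjusted threshold in 33 of the 9932 genes (0.332%), with 267 at an unadjusted p under 0.05. Each genotype had 1 layer 1 section, which is assumed here to vary like the other sections, so genotype and section cannot be told apart. Nog differed by -4.44 ± 0.68 (SE, Evx1as-/- minus Evx1as+/-, limma adjusted p = 0.0193) and the tektin gene Tekt1 by -3.26 ± 0.52 (SE, limma adjusted p = 0.0253). Noto differed by -1.88 ± 0.60 without passing (limma adjusted p = 1).

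The 5 genes with the smallest p in that test were all at or below 1.25 FPKM in Evx1as-/- layer 1 and higher in Evx1as+/- layer 1. They were Lrrc18 at 0.446 and 21.5 FPKM, Cfap61 (an axonemal gene) at 0.0979 and 14.3 FPKM, Fitm1 (a lipid droplet gene) at 0 and 6.64 FPKM, Lhb (a hormone subunit) at 0.371 and 12.1 FPKM, and Tekt4 at 1.25 and 18.2 FPKM. In streak layers 3 to 11, Lrrc18, Cfap61, Lhb and Tekt4 were at or below 0.252 FPKM, whereas Fitm1 was at 1.11 to 2.62 FPKM in Evx1as-/- layers 5 to 11 and at 0 in all Evx1as+/- ones. The smallest adjusted p of limma was 0.00329, for Lrrc18.

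The higher genes, chosen for this difference, are described here by section. Their median level was 9.54 FPKM in the Evx1as-/- layer 1 section and 18.4 FPKM in the Evx1as+/- one, against 1.10 FPKM in Evx1as+/- layer 3 and 0.107 to 0.832 FPKM in layers 5 to 11. All 218 were at 1 FPKM or more in the Evx1as+/- layer 1 section, against 112 of them in Evx1as+/- layer 3. The 8 mesoderm sections had medians of 0.198 to 1.56 FPKM for the same genes. Against only the 3 sections of layers 3 and 5, all 218 higher and all 14 lower genes kept their direction, with a median log2 change of 2.70 for the higher. In each genotype layer 1 lay beyond the sections of that genotype. This, like the direction, already follows from the lack of overlap given above. None of these genes was called by limma (smallest adjusted p 0.0972, 1401 genes at an unadjusted p under 0.05). With layer number as a further term, 15 genes were called higher and 3 lower, and 15 of the 218 and 3 of the 14 were among them.

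Layer 1 was also set against the anterior epiblast, the part of the epiblast that forms neural tissue, with 1 library in each genotype from layers 4 to 6. In a fit of all 13 libraries 210 of 9854 genes (2.13%) were higher and 11 (0.112%) lower in layer 1, with a median log2 change of 0.59 over all genes. Both contrasts share the layer 1 libraries. T, which did not separate layer 1 from the other streak layers, was higher than in anterior epiblast by 5.69 ± 0.48 (SE, limma adjusted p = 1.92e-05). Noto and Foxa2 were higher too, at limma adjusted p values of 9.37e-06 and 0.00158. Without the Evx1as+/- layer 1 section 20 genes were called higher and 2 lower, without the Evx1as+/- anterior library 21 and 4, and without Evx1as+/- layer 11, 481 and 24.

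Cyp26a1, a retinoic acid-degrading enzyme, was at 102 and 31.5 FPKM in Evx1as-/- and Evx1as+/- layer 1, against 0.0749 and 0.773 FPKM in Evx1as-/- and Evx1as+/- anterior epiblast (limma adjusted p = 0.0386). Rhox5, a homeobox gene of extraembryonic tissue, was at 31.9 and 39.8 FPKM, against 0 FPKM in both anterior libraries (limma adjusted p = 0.0325). Some genes of epiblast and early neural tissue were lower. The arginine transporter gene Slc7a3 was at 1.03 and 0.587 FPKM in layer 1, against 48.8 and 28.6 FPKM (limma adjusted p = 0.000983). The POU factor gene Pou3f1 was at 1.38 and 0.769 FPKM, against 18.7 and 6.46 FPKM (limma adjusted p = 0.0095). The DNA methyltransferase gene Dnmt3b was at 36.6 and 10.4 FPKM, against 148 and 125.53 FPKM (limma adjusted p = 0.0145). Cyp26a1, which was higher, is in the same list of anterior epiblast and early neural genes as Slc7a3 and Pou3f1. That list summed to 248.9 and 101.4 FPKM in layer 1, against 270.7 and 136.4 FPKM in anterior epiblast. The primed epiblast list summed to 819.2 and 396.9 FPKM, against 680.8 and 434.9 FPKM. Of the 218 genes higher than in the other streak layers, 112 were below 1 FPKM in both anterior libraries and 64 were at or above it in both. Crb3 was among genes with like levels in the 2 regions, at 10.7 and 11.6 FPKM in layer 1 and 9.27 and 11.4 FPKM in anterior epiblast (log2 difference 0.10 ± 0.63 SE, limma adjusted p = 0.95).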

How the data were processed

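The authors deposited 1 table per captured piece with an FPKM value for each of 46785 gene identifiers, and per the submitters' processing notes reads were processed with CASAVA and TopHat2 2.0.11 on mm10. The tool that made the FPKM values is not given in the sources used here. Groups came from the labels. The 3 sections with conflicting region labels entered no main fit, 4 posterior pieces were not analysed here, and 6 culture libraries were not used.

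Genes with a mean of 1 FPKM or more over the 11 sections were fitted as log2(FPKM + 1) with limma 3.58.1 in R 4.3.3, with layer 1 and genotype as terms, a mean-dependent prior variance and Benjamini-Hochberg adjustment over all genes tested. The same scripts were tested on simulated data. A gene was called at an adjusted p under 0.05 with the same direction in both genotypes. A further fit added the genotype difference in the layer 1 change, and another added the anterior epiblast libraries. Evx1as, Evx1 and T were tested by exact permutation, two-sided, within genotype. Named genes were the 10 largest called changes each way, with a level of 5 FPKM or more, and up to 4 called members of each list, and other genes were named after their values were seen. Gene lists and members were chosen with earlier results of these data known. Alternatives covered pseudocount, filter, scaling, terms, reference layers, genotypes and single libraries.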

Additional observations from a re-analysis of the deposited data

Results flagged for a closer look

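Among 90 groups of 4 or 5 sections checked for a value standing far from the rest on the log2 scale, 19 were picked out, and chance picks out about 1 in 20 groups. That share does not hold for a lone value above 0 beside values of 0, which always stands apart. This was so for Tppp3, Enkur, Pifo, Cfap126 and Plet1. The groups also share sections, so the 19 cannot be read as an excess. In Evx1as-/- layer 11, 7 genes stood above the other Evx1as-/- sections outside layer 1: Cfap126 at 1.27, Srgn at 6.34, Hhex at 1.16, Plet1 at 2.17, Bmp2 at 1.77, Col4a1 at 5.64 and Col4a2 at 2.31 FPKM. Of these, Cfap126, Srgn, Hhex and Col4a1 reached 1.27, 4.57, 3.39 and 4.86 FPKM in Evx1as+/- layer 5. In Evx1as-/- layer 7, Tppp3 was at 0.587 FPKM and Enkur at 0.0976 FPKM, and in Evx1as-/- layer 9 Pifo was at 0.322 FPKM, with the other Evx1as-/- sections outside layer 1 at 0 for these 3 genes.

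In Evx1as+/- layer 11, the streak library with the fewest genes at 1 FPKM, 2 genes were low. Gas1 was at 10.4 FPKM, with the nearest section at 34.8 FPKM, and Wnt8a at 0.481 FPKM, with the nearest at 7.13 FPKM. In Evx1as+/- layer 3, Snhg12 was low at 3.36 FPKM, while Hes1 at 1.67 FPKM and Lgr5 at 2.62 FPKM stood apart from the other Evx1as+/- sections. In Evx1as+/- layer 5, Lhx1 was at 6.75 FPKM and Dhrs3 at 1.24 FPKM. In Evx1as+/- layer 9, Gata6 was at 0.716 FPKM and Sox17 at 1.55 FPKM.

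The layer 1 change differed between genotypes by the tested term for 7 of the genes described. The difference, Evx1as-/- minus Evx1as+/- on the log2 scale, was -3.26 for Tekt1, -4.33 for Fitm1, -3.09 for Tekt4, -3.74 for Cfap61, -3.99 for Lrrc18, -4.44 for Nog and -3.26 for Lhb. All 7 were higher in the Evx1as+/- layer 1 section than in the Evx1as-/- one.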

How the results depend on the processing

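No paired analysis was possible because the number of a section is its layer, which is the quantity compared. Calls of 218 higher and 14 lower genes became 30 and 9 with a pseudocount of 0.1, 581 and 9 with no filter, 48 and 8 with a filter at a mean of 5 FPKM, 172 and 46 after scaling, and 167 and 34 after rescaling to equal sums without Yam1. They became 15 and 3 with layer number as a term, 0 and 0 against layers 3 and 5 only, 85 and 4 in Evx1as-/- sections alone, 121 and 2 in Evx1as+/- sections alone, and, in an alternative chosen after seeing the data, 39 and 6 among genes at 1 FPKM or more in all 11 sections. Leaving out single sections gave 51 to 258 higher and 5 to 29 lower. Without a genotype term, with the conflicting sections placed by title or by label, or without the mean-dependent prior, counts stayed within 1.5 times.

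Genes above every other section of the genotype fell to 1054 after scaling and those below numbered 663, with 1668 to 1993 and 248 to 382 when single sections were left out. The 33 genotype differences became 8 with a pseudocount of 0.1, 2070 with no filter and 16 after scaling, and 25 to 35 when sections were left out. Against anterior epiblast, 210 and 11 became 65 and 2 with a pseudocount of 0.1, 351 and 85 with no filter, 110 and 28 after scaling, and 20 to 481 and 2 to 24 when libraries were left out.

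Reversals were limited to values with no call. The T change was -0.07572 after scaling and -0.01817 after rescaling without Yam1, its permuted difference was -0.07466 after scaling, and the fitted Evx1 change was 0.1644 with layer number as a term. The permuted Evx1 difference ran from -1.865 (exact permutation p = 0.0417, not adjusted) to -1.445 (exact permutation p = 0.167, not adjusted) when sections were left out. The permuted Evx1as difference was -1.373 with a pseudocount of 0.1. Of 1073 repeats for the 45 named genes tested, 809 kept direction and call, 261 kept only the direction and 3 reversed. The cause of these shifts was not tested. Read depth is unknown, each genotype had 1 layer 1 section, and sections may share an embryo.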
